A study of Mus musculus with 6 samples.

Results

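The genes described here make cholesterol, sense it, move it inside the cell, export it, store it or limit its uptake. They were chosen by name, 32 in all, with earlier results of these data known. Of the 32, 29 had at least 1 probe set that named only that gene, out of 18193 such genes on the array. Acat2, Nr1h2 and Soat1 were not analysed here. The 29 genes were covered by 61 probe sets, and each gene was read first from its brightest probe set, taking the mean of the 6 arrays. All 29 lay above the filter on dim genes, a mean signal of 51.6, so none was left untested.

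The tissue was epididymal white fat from mice of the C57BL/6 strain aged 8 weeks, with 1 Affymetrix array for each mouse. In the 3 CNOT3KO mice, Cnot3 was deleted with Cre under control of the Adiponectin promoter. That promoter is active in adipocytes, so the vessels, macrophages and progenitors of the fat pad keep the gene. CNOT3 belongs to CCR4-NOT, the main deadenylase of the cytoplasm, which trims mRNA poly(A) tails. The other 3 mice are labelled wild type (WT), and the labels name no floxed allele or Cre for them. The comparison of CNOT3KO with WT asks which mRNAs of the pad differ when its adipocytes lack CNOT3. Values are MAS5 signals on a linear scale, differences are CNOT3KO minus WT on the scale of log2(signal + 22.5), and folds are taken from those differences. A gene was called where limma's adjusted p over all tested genes was under 0.05.

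Cholesterol is built from acetyl-CoA. The mevalonate steps make isoprene units, squalene is assembled and closed into lanosterol, and a run of demethylations, reductions and isomerisations then gives cholesterol. When sterols in the endoplasmic reticulum are low, SCAP carries the transcription factor SREBP-2 to the Golgi, where it is cut and released to switch on the synthesis genes. When sterols are ample, INSIG proteins hold SCAP back. Oxysterols meanwhile activate the LXR receptors, which turn on exporters such as ABCA1 and ABCG1 and the ubiquitin ligase MYLIP, which sends lipoprotein receptors for degradation. An adipocyte keeps much of its free cholesterol in the membrane and droplet surface, whereas a lipid-laden macrophage stores cholesteryl esters.

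Over the whole array, 5115 of 12769 tested genes were called (40.1%), with 2959 higher (23.2%) and 2156 lower (16.9%), and the median log2 difference was 0.02. Cnot3 itself read 194, 229 and 179 in CNOT3KO mice, against 305, 293 and 305 in WT mice (log2 difference -0.54, limma adjusted p = 0.0131). Markers of several cell types moved with the genotype, and all those with a probe set lay above the filter. Of 12 macrophage markers 10 were higher and 0 lower, and their summed signal ranged from 45765 to 66136 in CNOT3KO mice and from 23254 to 29049 in WT mice. Cd163 went the other way without being called, at 1909, 1637 and 767 in CNOT3KO mice, against 2255, 2307 and 2067 in WT mice (log2 -0.71). It was called lower without CNOT3KO mouse 1 (-0.96), with arrays centred on the median of tested genes (-0.81) and with a replicate block (-0.71). Of 10 adipocyte markers 0 were higher and 3 lower, with sums of 122778 to 147361 in CNOT3KO mice and 142795 to 178747 in WT mice. All 7 endothelial markers were lower, with sums of 2488 to 3240 in CNOT3KO mice and 6329 to 7887 in WT mice. Of 5 progenitor markers 1 was higher and 1 lower. Their part in the results below was not tested. In whole tissue, fewer cells of a type and less RNA per cell cannot be told apart.

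Of the 29 sterol genes, 16 were called higher in CNOT3KO fat, against 23.2% of all tested genes, and 2 were called lower, against 16.9%. The remaining 11 did not pass. Because the list was made with earlier results of these data known, the shares here describe it and do not test it. The median log2 difference of the 29 was 0.52, with a range of -0.54 to 2.91. In 16 genes all CNOT3KO mice lay above all WT mice and in 1 gene below, where 29.0% and 22.7% of all tested genes did so, 51.7% in either direction. Of the 29, 10 were called higher with a log2 difference of at least 1, against 829 of all 12769 tested genes (6.49%). Leaving out WT mouse 2 reduced the 16 called higher to 9, and leaving out CNOT3KO mouse 1 reduced them to 10. Scaling the arrays on ribosomal protein genes gave 10.

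**Figure D1:**
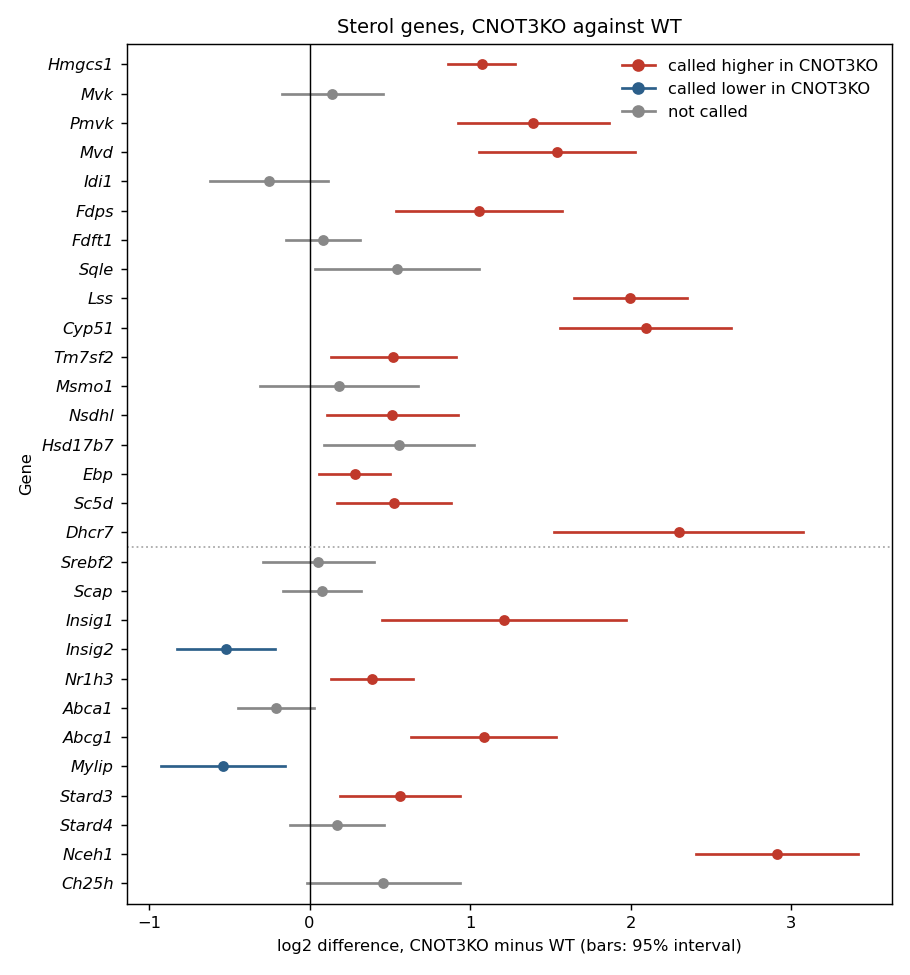
Difference of each of the 29 sterol genes between CNOT3KO and WT fat on the log2 scale (horizontal axis, CNOT3KO minus WT), with 95% intervals from the limma fit as bars. Synthesis enzymes stand above the dotted line and the other genes below it. Nceh1 at 2.91, Dhcr7 at 2.30 and Cyp51 at 2.10 lie farthest to the right, and Insig2 and Mylip are the 2 genes called lower.

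Among the 17 synthesis enzymes measured, 11 were called higher, 0 lower and 6 did not pass, with a median log2 difference of 0.54. The rises were uneven along the pathway. Of the 11, 7 rose by more than 1 on the log2 scale, in the mevalonate part (Hmgcs1, Pmvk, Mvd, Fdps) and in the sterol part (Lss, Cyp51, Dhcr7). The other 4, Tm7sf2, Nsdhl, Ebp and Sc5d, rose by 0.28 to 0.53. Sqle (0.54) and Hsd17b7 (0.56), which did not pass, had larger differences than these 4. Leaving out CNOT3KO mouse 1 or 3 or WT mouse 2 or 3 gave 7 enzymes each time, the same 7 that rose by more than 1, and so did centring each array on the median of the tested genes or on ribosomal protein genes.

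Hmgcs1 encodes the cytosolic HMG-CoA synthase, which feeds the mevalonate pathway. Its brightest probe set read 12041, 12465 and 11461 in CNOT3KO mice, against 5927, 5549 and 5597 in WT mice. The groups lay far apart and each was tight, so the log2 difference of 1.07 had a standard error of 0.09 (2.10-fold, limma adjusted p = 4.3e-05). Of its 4 other probe sets, 3 were also called higher, by 2.06-fold and 3.74-fold in 2 of them when every probe set was tested singly. The third averaged 2707 ± 384 in CNOT3KO and 1335 ± 89.6 in WT mice (SD, n = 3 each). The dimmest of them, at a mean signal of 58.4 in CNOT3KO and 74.9 in WT mice, was not called.

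Mvk, the kinase that phosphorylates mevalonate first, read 356, 374 and 391 in CNOT3KO mice, against 342, 386 and 287 in WT mice, with overlapping groups. Its 95% interval on the log2 scale was -0.17 to 0.46. The other Mvk probe set, tested singly, was not called either, at 0.44 with a standard error of 0.26. The next kinase, Pmvk, gave another picture, with 2392, 1917 and 3001 in CNOT3KO mice and 1209, 858 and 696 in WT mice (2.63-fold, limma adjusted p = 0.000793). Mvd, the decarboxylase that ends the mevalonate steps, read 516, 535 and 749 in CNOT3KO mice, against 266, 152 and 164 in WT mice. That is 2.91-fold (limma adjusted p = 0.000522), and its other probe set gave nearly the same log2 difference, 1.51 against 1.54.

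Idi1 follows Mvd and isomerises the isoprene unit, but it was not called. It read 1460, 1059 and 1393 in CNOT3KO mice, against 1760, 1682 and 1248 in WT mice, a log2 difference of -0.26 with a 95% interval of -0.62 to 0.11. The upper bound of that interval lies below the lower bounds for Hmgcs1 (0.86), Pmvk (0.92), Mvd (1.06) and Fdps (0.54). These are intervals of the brightest probe sets, and differences between genes were not themselves tested. The other Idi1 probe set, tested singly, was not called either, at -0.02 with a standard error of 0.25. Fdps joins isoprene units into farnesyl diphosphate, and it read 1687, 1054 and 1887 in CNOT3KO mice, against 941, 633 and 597 in WT mice (2.08-fold, limma adjusted p = 0.00551). CNOT3KO mouse 2 came close to WT mouse 1 without crossing it. With the mean of all probe sets, which for Fdps includes 1 that read 1 to 1.21 on every array, the log2 difference was 0.53.

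Fdft1 and Sqle, which make squalene and its epoxide, did not pass. Fdft1 read 5919, 5149 and 5798 in CNOT3KO mice, against 5267, 5701 and 4955 in WT mice, and its interval reached from -0.15 to 0.31. Sqle read 559, 494 and 647 in CNOT3KO mice, against 556, 267 and 365 in WT mice. WT mouse 1 lay inside the CNOT3KO range, and without that mouse Sqle was called (log2 difference 0.81 against 0.54, limma adjusted p = 0.00908).

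Lss, the cyclase that closes squalene epoxide into lanosterol, read 1268, 1025 and 1248 in CNOT3KO mice, against 346, 254 and 241 in WT mice (3.997-fold, limma adjusted p = 2.7e-05). Its size depends on the probe set. The second-brightest one read 649, 521 and 576 in CNOT3KO mice, against 507, 433 and 328 in WT mice, with a log2 difference of 0.46 that was not called, although the groups did not overlap there either. That probe set stands for Lss when probe sets with names ending in _x_at, _s_at or _a_at are avoided, and the call was then lost. Cyp51 removes the first methyl group of lanosterol, and it read 2695, 1982 and 2414 in CNOT3KO mice, against 830, 433 and 415 in WT mice (4.27-fold, limma adjusted p = 0.000166). Both other Cyp51 probe sets were called higher too, by 1.63 and 1.17 on the log2 scale.

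The next enzymes, as far as Sc5d, had smaller differences or did not pass. Tm7sf2, a sterol reductase, read 377, 370 and 513 in CNOT3KO mice, against 330, 291 and 234 in WT mice (1.44-fold, limma adjusted p = 0.037). Its call was lost without CNOT3KO mouse 1 (log2 0.59) or 3 (0.38) or WT mouse 2 (0.54) or 3 (0.40). Msmo1, which starts the removal of the next methyl groups, read 1584, 1191 and 1587 in CNOT3KO mice, against 1783, 1244 and 915 in WT mice. Here the highest value of all 6 belonged to WT mouse 1, and the 95% interval on the log2 scale was -0.31 to 0.67.

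Nsdhl, the dehydrogenase and decarboxylase of the same step, read 2383, 1942 and 2700 in CNOT3KO mice, against 1973, 1744 and 1227 in WT mice. The groups overlapped at CNOT3KO mouse 2 and WT mouse 1 (1.43-fold, limma adjusted p = 0.0472). The call was lost without CNOT3KO mouse 1 (log2 0.50) or 3 (0.41) or WT mouse 2 (0.57) or 3 (0.32). Hsd17b7, the ketoreductase of that step, was not called at 0.56 (limma adjusted p = 0.059), but was without WT mouse 1 (0.80), and 1 of its other probe sets was called higher by 0.80 when tested singly.

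Ebp, the isomerase that shifts the ring double bond, read 2827, 2749 and 3106 in CNOT3KO mice, against 2346, 2292 and 2492 in WT mice. The rise was 1.21-fold with no overlap (limma adjusted p = 0.0458), and the call was lost when any 1 of the 6 arrays was left out (log2 0.23 to 0.32). Sc5d, the desaturase after it, read 7191, 6355 and 8520 in CNOT3KO mice, against 6357, 4483 and 4555 in WT mice, where CNOT3KO mouse 2 and WT mouse 1 nearly coincided (1.44-fold, limma adjusted p = 0.0248). The direction of Sc5d depends on the probe set: a dimmer one read 625, 528 and 752 in CNOT3KO mice, against 1482, 893 and 849 in WT mice, and was called lower by 0.71 when tested singly. The higher call was lost without CNOT3KO mouse 1 (0.54) or 3 (0.42) or WT mouse 2 (0.44) or 3 (0.45).

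Dhcr7, the reductase that takes the last step to cholesterol, had the largest difference of the 17 enzymes on this scale. It read 794, 812 and 1365 in CNOT3KO mice, against 344, 129 and 121 in WT mice, or 4.92-fold with a 95% interval of 2.88 to 8.41 (limma adjusted p = 0.000768). CNOT3KO mouse 3 and WT mouse 1 stood above the other mice of their groups. The interval is wide enough to include Cyp51 and Lss, so the order of these 3 is not settled.

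**Figure D2:**
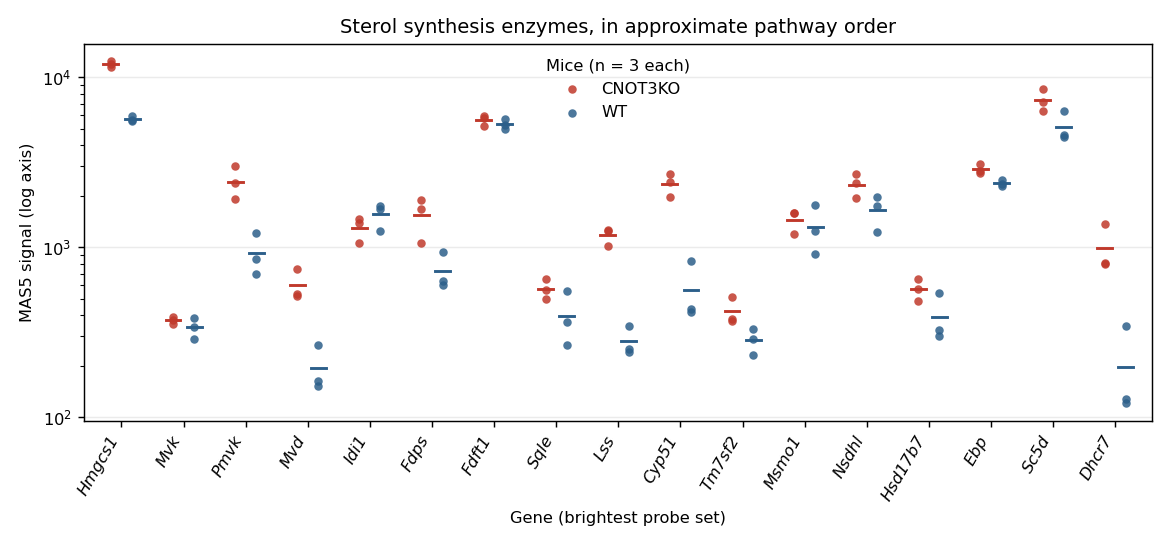
MAS5 signal of the 17 synthesis enzymes (vertical axis, logarithmic) in each CNOT3KO mouse (red, left of each pair) and WT mouse (blue, right), with the group mean as a short line. Hmgcs1, Pmvk, Mvd, Fdps, Lss, Cyp51 and Dhcr7 show separated groups, while Mvk, Idi1, Fdft1 and Msmo1 overlap.

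Start-site regions of some of these genes are shown next, and their part in the rises was not tested. The sequences are the 250 bases before the annotated start in RefSeq on GRCm38.p6, in the gene's direction, with CCAAT (or its complement ATTGG) and TCACNCCAC (on either strand) in capitals. CCAAT is the core of the box bound by NF-Y, and TCACNCCAC is a form of the sterol regulatory element bound by SREBP. The first set is 3 enzymes that rose with no overlap, Hmgcs1 (chr13:119690101-119690350, plus strand), Mvd (chr8:122443423-122443672, minus strand) and Cyp51 (chr5:4104698-4104947, minus strand). Beside them stand Idi1 (chr13:8885356-8885605, plus strand), which was not called, and the feedback gene Insig1 (chr5:28071162-28071411, plus strand), described further on.
Hmgcs1: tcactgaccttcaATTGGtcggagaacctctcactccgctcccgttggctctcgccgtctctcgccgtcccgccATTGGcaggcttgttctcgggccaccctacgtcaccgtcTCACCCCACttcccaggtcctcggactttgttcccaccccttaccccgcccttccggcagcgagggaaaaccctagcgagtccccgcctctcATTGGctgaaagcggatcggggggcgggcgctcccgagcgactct
Mvd: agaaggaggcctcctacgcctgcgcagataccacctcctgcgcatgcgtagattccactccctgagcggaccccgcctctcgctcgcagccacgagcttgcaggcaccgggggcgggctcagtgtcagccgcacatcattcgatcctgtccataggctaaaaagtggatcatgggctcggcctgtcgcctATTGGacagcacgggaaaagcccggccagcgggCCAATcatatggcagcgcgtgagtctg
Cyp51: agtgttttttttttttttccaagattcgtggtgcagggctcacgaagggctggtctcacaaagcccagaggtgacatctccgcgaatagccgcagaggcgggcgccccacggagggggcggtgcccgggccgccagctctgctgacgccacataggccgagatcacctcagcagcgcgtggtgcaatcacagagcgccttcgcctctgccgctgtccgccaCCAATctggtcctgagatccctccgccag
Idi1: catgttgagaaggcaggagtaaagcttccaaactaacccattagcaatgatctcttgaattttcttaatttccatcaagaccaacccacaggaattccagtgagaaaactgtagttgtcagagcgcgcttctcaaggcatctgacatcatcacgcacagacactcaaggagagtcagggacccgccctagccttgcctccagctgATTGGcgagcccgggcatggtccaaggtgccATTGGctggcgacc
Insig1: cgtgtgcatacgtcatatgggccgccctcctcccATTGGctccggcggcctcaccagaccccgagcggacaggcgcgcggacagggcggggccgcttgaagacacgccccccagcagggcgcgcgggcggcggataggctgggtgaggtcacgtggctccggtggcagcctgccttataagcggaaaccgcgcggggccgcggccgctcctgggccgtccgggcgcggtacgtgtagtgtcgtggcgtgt

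RefSeq entries were matched for 24 of the 29 genes, with 31 start sites, since some genes have several. Entries for Fdps, Fdft1, Sqle, Abcg1 and Stard4 were not used. In the 14 synthesis enzymes matched, every gene had a CCAAT in at least 1 of its start regions, 14 of 17 regions in all (82.4%), against 33.8% of all 32851 regions of the same length. The 4 matched enzymes that were not called (Mvk, Idi1, Msmo1 and Hsd17b7) all held one, as did the 10 that were called. GGGCGG, the GC box, was in 14 of the 17 regions as well, against 32.7% of all regions. The stricter TCACNCCAC was in 1.05% of all regions and, among the sterol genes, in those of Hmgcs1, where it starts 137 bases before the start site, and Stard3. A direct repeat of the LXR kind was searched only as 2 exact copies of GGTCA with 5 bases between them. It was in none of the 31 regions and in 0.0639% of all regions. Looser copies were not counted, and the Abca1 region holds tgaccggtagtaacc, an inexact copy on the other strand. These matches describe the letters only. All 4 motifs were searched on both strands, and a CCAAT read on the other strand can share its last bases with a GC box.

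The control genes split. Srebf2, which encodes SREBP-2, read 182, 212 and 235 in CNOT3KO mice, against 223, 190 and 191 in WT mice, with a 95% interval of -0.29 to 0.40 on the log2 scale. Scap, its escort, read 1250, 1074 and 1278 in CNOT3KO mice, against 1149, 1098 and 1147 in WT mice, with an interval of -0.16 to 0.32. Neither was called, and in both the groups overlapped.

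Insig1 and Insig2, which encode the paired retention proteins for SCAP, moved in opposite directions. Insig1, itself a target of SREBP, read 7142, 8007 and 6527 in CNOT3KO mice, against 5990, 2726 and 1823 in WT mice. The WT mice spread over 3.29-fold and the CNOT3KO mice over 1.23-fold, and the lowest CNOT3KO mouse stood only a little above WT mouse 1 (2.31-fold, 95% interval 1.36 to 3.92, limma adjusted p = 0.0183). The log2 difference was 1.68 without WT mouse 1, 0.83 without WT mouse 3, and no longer called without WT mouse 2 (1.12) or CNOT3KO mouse 1 (1.21). Insig2 read 2068, 1565 and 2020 in CNOT3KO mice, against 3032, 2670 and 2417 in WT mice. It fell with no overlap, by 0.52 on the log2 scale (limma adjusted p = 0.0131), and was called lower under all 20 alternatives tried. Its other probe sets were not called singly, at log2 differences of -0.38 with separated groups and -0.07 with overlapping ones.

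Of the genes tied to LXR, Nr1h3, which encodes LXR alpha, read 1275, 1255 and 1331 in CNOT3KO mice, against 1090, 865 and 986 in WT mice. It rose 1.31-fold (limma adjusted p = 0.0222) and lost its call without CNOT3KO mouse 1 (log2 0.40) or 3 (0.37) or WT mouse 2 (0.31). The targets of LXR were called in different directions or not at all. Abcg1, which passes cholesterol to high-density lipoprotein, read 2665, 2907 and 3178 in CNOT3KO mice, against 1624, 933 and 1659 in WT mice (2.12-fold, limma adjusted p = 0.00236). Its dimmer probe set was not called (0.36), although the groups were separated there as well.

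Abca1, which loads cholesterol onto apolipoprotein A-I, was bright in every mouse and not called. It read 12908, 14131 and 12772 in CNOT3KO mice, against 13915, 16670 and 15477 in WT mice, and its log2 difference of -0.21 had an interval of -0.44 to 0.03. Mylip, the ligase that marks lipoprotein receptors for degradation, fell. It read 1879, 1999 and 2504 in CNOT3KO mice, against 3753, 2395 and 3236 in WT mice, overlapping at CNOT3KO mouse 3 and WT mouse 2 (log2 difference -0.54, limma adjusted p = 0.0315). The call was lost without CNOT3KO mouse 1 (-0.46) or 2 (-0.50) or WT mouse 1 (-0.40) or 3 (-0.50). On the log2 scale the interval for Abcg1 (0.63 to 1.53) lies wholly above those for Abca1 and Mylip (-0.92 to -0.15). That holds for the brightest probe sets, and differences between genes were not themselves tested. Tested singly, the dimmer Abca1 probe sets were not called, at 0.03 and 0.16, beside 0.36 for the dimmer one of Abcg1.

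Nceh1 had the largest difference of all 29 genes. It encodes a membrane hydrolase that frees cholesterol from its esters and is known from macrophages. Nceh1 read 1037, 1252 and 693 in CNOT3KO mice, against 84.6, 110 and 137 in WT mice, or 7.52-fold with a 95% interval of 5.31 to 10.7 (limma adjusted p = 2.7e-05). CNOT3KO mouse 3 was the lowest of its group and still several times above every WT mouse. Both other probe sets were called higher, by 2.54 and 1.74 on the log2 scale. The same CNOT3KO mouse 3 had the lowest summed macrophage signal of its group, 45765 beside 59084 in mouse 1 and 66136 in mouse 2, an order that Nceh1 shared (mouse 2 highest, then 1, then 3). In WT mice the orders differed: Nceh1 was highest in mouse 3, then 2, then 1, while the macrophage sum was 26491 in mouse 1, 23254 in mouse 2 and 29049 in mouse 3. A link between Nceh1 and the macrophage markers was not tested.

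Stard3, a late endosomal protein that passes sterol to the endoplasmic reticulum, read 720, 872 and 736 in CNOT3KO mice, against 671, 439 and 466 in WT mice. It rose 1.48-fold (limma adjusted p = 0.0234), a call lost without CNOT3KO mouse 2 (log2 0.48) or WT mouse 2 (0.45) or 3 (0.49). Stard4, a soluble sterol carrier and a known SREBP target, read 386, 341 and 324 in CNOT3KO mice, against 315, 286 and 322 in WT mice. The groups touched without overlapping and the difference of 0.17 was not called. Ch25h makes the oxysterol 25-hydroxycholesterol and was dim, at 112, 89.7 and 138 in CNOT3KO mice, against 80.5, 86.7 and 60.7 in WT mice. Its log2 difference of 0.46 did not pass (limma adjusted p = 0.114), with an interval of -0.02 to 0.94.

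**Figure D3:**
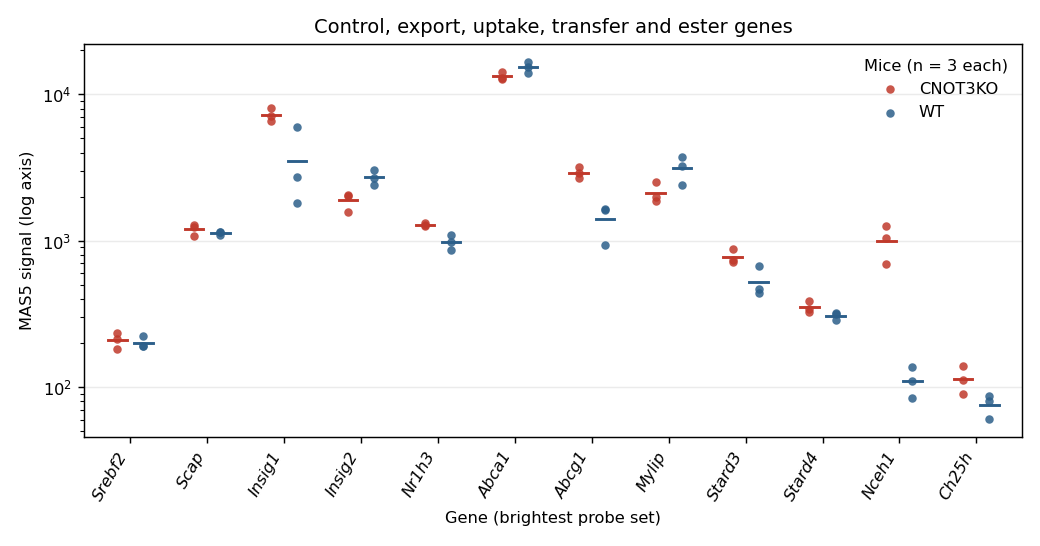
MAS5 signal of the 12 genes of control, LXR, transfer, ester and oxysterol functions (vertical axis, logarithmic) in CNOT3KO mice (red, left) and WT mice (blue, right), with group means as short lines. Nceh1 and Abcg1 are separated upwards in CNOT3KO, Insig2 downwards, and Insig1 shows 1 WT mouse at 5990 close to the CNOT3KO mice.

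Of the 18 genes with more than 1 probe set, 32 further probe sets were read, and 25 passed the filter. Among these, 8 were called in the same direction as the brightest probe set, for Hmgcs1, Mvd, Cyp51 and Nceh1. In 1 case, Sc5d, the call went the other way, and 1 was called where the brightest was not, for Hsd17b7. In 6 cases the brightest probe set was called and the other was not. When every probe set was tested singly, 16.8% of all probe sets were called higher and 19.1% lower.

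**Figure D4:**
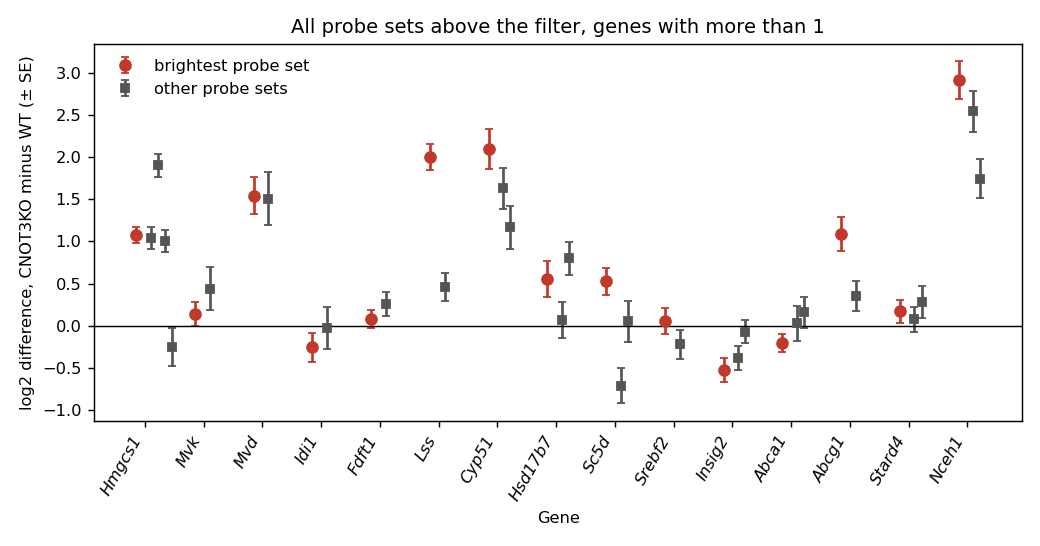
Log2 difference (vertical axis, CNOT3KO minus WT) with its standard error for every probe set above the filter, in the 15 sterol genes with more than 1 such probe set. Red circles are the brightest probe set and grey squares the others. Hmgcs1, Mvd, Cyp51 and Nceh1 have further probe sets well above 0, whereas those of Lss and Abcg1 lie nearer to 0 and 1 of Sc5d lies below it.

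The synthesis enzymes also differed between mice of the same genotype. In CNOT3KO mice, mouse 3 was the highest of its group for 12 of the 17 enzymes and mouse 2 the lowest for 13, with median log2 deviations from the group mean of 0.19 and -0.20 and of 0.01 for mouse 1. Over all tested genes CNOT3KO mouse 3 was highest in 36.0% and mouse 2 lowest in 33.9%. In WT mice, mouse 1 was the highest for 14 of 17 and mouse 3 the lowest for 12, with median deviations of 0.33 for mouse 1, -0.06 for mouse 2 and -0.24 for mouse 3. WT mouse 1 was highest in 33.9% of all tested genes and WT mouse 3 lowest in 35.2%, and the median deviation of all tested genes lay between -0.01 and 0.01 in each mouse.

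Insig1 followed the enzymes in WT mice, where mouse 1 was highest and mouse 3 lowest, but not in CNOT3KO mice, where mouse 2 was highest and mouse 3 lowest. The summed signal of the 17 enzymes was 44618, 39954 and 47428 in CNOT3KO mice, against 31114, 26422 and 24408 in WT mice. Beside it, the adipocyte marker sum was 122778, 123110 and 147361 in CNOT3KO mice, against 142795, 166329 and 178747 in WT mice. Without WT mouse 1, 17 of the 29 genes were called higher, 12 of them enzymes, and 15 of the 16 called before were among them. The log2 difference of Dhcr7 was then 2.74 and that of Cyp51 2.41.

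**Figure D5:**
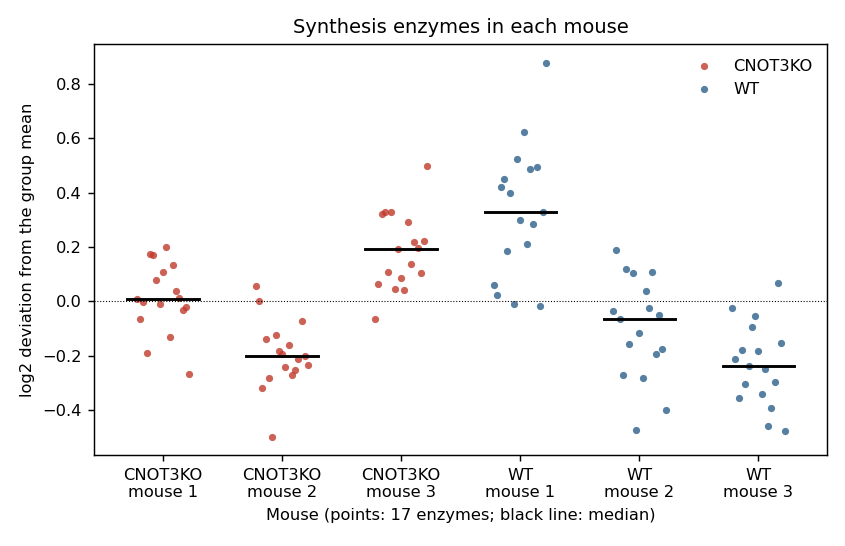
Log2 deviation of each of the 17 synthesis enzymes from its group mean (vertical axis) in the 3 CNOT3KO mice (red) and the 3 WT mice (blue), with the median as a black line. WT mouse 1 sits above its group at a median of 0.33, and CNOT3KO mouse 2 sits below its own at -0.20.

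Other genes of the same pathways, which are not among the 29, were counted against the same shares of all tested genes, 23.2% higher and 16.9% lower. These lists too were made with earlier results of these data known. Of 8 further genes of mevalonate supply and its side branches 1 was called higher and 2 lower (median log2 difference 0.26). The higher one was Dhdds, of dolichol synthesis, at 811 ± 73.5 in CNOT3KO and 428 ± 126 in WT mice (SD, n = 3 each, log2 0.92). Dhdds was not called when probe sets with names ending in _x_at, _s_at or _a_at were avoided (0.15). Nus1, its partner in dolichol synthesis, was not called at 0.30, but was called higher with those probe sets avoided (0.93, limma adjusted p = 0.000117) and with the mean of all probe sets (0.55, limma adjusted p = 0.00412), as well as with array weights (0.26) and without WT mouse 3 (0.41). The lower ones were Ggps1, which makes geranylgeranyl diphosphate, at 482 ± 23.6 in CNOT3KO and 829 ± 120 in WT mice (log2 -0.75), and Coq2, of ubiquinone synthesis, at 1345 ± 92.4 in CNOT3KO and 2648 ± 144 in WT mice (log2 -0.97).

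Among 9 further genes of SREBP processing and its partner factors, 2 were called higher and 3 lower. Tmem97, a sterol-responsive membrane protein, rose 1.84-fold, and Nfya, a subunit of NF-Y, 1.29-fold, a call that was lost when any 1 array was left out (log2 0.30 to 0.41). Nfyb, another NF-Y subunit, fell by 0.52 on the log2 scale and Sp1, which binds GC boxes, by 0.43. With the mean of all probe sets neither was called (-0.32 and -0.24). Mbtps1, the protease that makes the first cut of SREBP, fell by 0.34. Its call was lost without CNOT3KO mouse 1 (-0.35) or 2 (-0.33) or WT mouse 2 (-0.35) or 3 (-0.28), and with the mean of all probe sets the log2 difference was 0.18.

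Genes of lipoprotein uptake and of sterol release in the lysosome were called higher in 5 of 9 cases and lower in 0 (median log2 difference 0.50). Besides Olr1, a scavenger receptor with a log2 difference of 5.68, these were Lipa, the acid lipase that splits cholesteryl esters in the lysosome, Msr1, a macrophage scavenger receptor, Vldlr, which takes up triglyceride-rich lipoproteins, and Npc1, which exports cholesterol from lysosomes. Olr1 read 2132, 1713 and 2147 in CNOT3KO mice, against 8.43, 36.8 and 10.4 in WT mice. All its WT signals lay below the filter on dim genes. The size of its difference therefore depends on the constant added before taking logs. Lipa read 4711, 5075 and 4737 in CNOT3KO mice, against 1459, 1164 and 1387 in WT mice, or 3.59-fold (limma adjusted p = 1.0e-05). Msr1 rose 2.44-fold, Vldlr 1.71-fold and Npc1 1.41-fold. Vldlr was not called when probe sets with names ending in _x_at, _s_at or _a_at were avoided (log2 0.25).

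Further LXR targets, partners and exporters gave 2 higher and 3 lower calls of 10 (median log2 difference 0.02). Lpcat3, a phospholipid-remodelling acyltransferase, rose 2.24-fold and Pltp, the phospholipid transfer protein, 1.68-fold. Rxra, the partner receptor of LXR, read 1002, 821 and 805 in CNOT3KO mice, against 1777, 1806 and 1605 in WT mice (log2 -0.97, limma adjusted p = 0.000258). Apoe, the apolipoprotein that carries cholesterol out of macrophages and adipocytes, fell by 0.65 and Abca5 by 0.45 on the log2 scale. With the mean of all probe sets Abca5 was not called (-0.40, limma adjusted p = 0.0682).

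Oxysterol enzymes and sterol-binding proteins were called higher in 8 of 16 cases and lower in 0 (median log2 difference 0.31). All 3 Gramd1 genes, whose proteins carry cholesterol from the plasma membrane to the endoplasmic reticulum, were among them. Gramd1b read 651, 728 and 737 in CNOT3KO mice, against 303, 165 and 197 in WT mice (3.06-fold, limma adjusted p = 0.000223). Gramd1a rose 1.65-fold and Gramd1c 2.48-fold. Gramd1c was dim, at 179, 106 and 166 in CNOT3KO mice, against 57.7, 40.7 and 41.0 in WT mice. Its WT mean lay below the filter on dim genes, so its fold depends on the constant added before taking logs. Osbpl3, an oxysterol-binding protein, rose 2.49-fold. Of the remaining 4 calls, Stard5 and Cyp7b1 kept theirs when any 1 array was left out. Osbp lost its call when any 1 array was left out (log2 0.22 to 0.35), and Cyp46a1 when any 1 array other than that of WT mouse 2 was left out (0.40 to 0.67). Osbpl9, another oxysterol-binding protein, was not called at 0.15 with overlapping groups. It was called lower when probe sets with names ending in _x_at, _s_at or _a_at were avoided (-1.02, limma adjusted p = 0.00505). With the mean of all probe sets its log2 difference was -0.07.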

How the data were processed

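RNA from the epididymal fat of 6 mice, 3 CNOT3KO and 3 WT, was hybridised to Affymetrix mouse arrays, from 500 ng of total RNA per mouse, as the protocols state. What the authors deposited are MAS5 signals, intensities on a linear scale, made by the authors per the submitters' processing notes; the MAS5 version is not given in the sources used here. Array medians were 82.1 to 92.9 and trimmed means agreed within 0.0701%. MAS5 subtracts mismatch signal, which makes dim probe sets unstable. The number of arrays limits the precision. The titles number the mice within a group, and no label ties a CNOT3KO mouse to a WT mouse.

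Of 45037 probe sets, 34945 named 1 gene in the platform annotation, 932 several and 9160 none, and only the first kind was used. Each gene was read from its brightest such probe set. Genes with a mean signal under 51.6, the 40th percentile, were left out. limma 3.58.1 in R 4.3.3 (lmFit, eBayes with trend) was fitted to log2(signal + 22.5), where 22.5 is the lower quartile of every value in the table, over 12769 genes with Benjamini-Hochberg adjustment at 0.05, after tests on simulated data. Probe sets tested singly were adjusted over 27022. In all, 20 alternatives were run, covering the offset, the filter, the scaling, the probe set rule, the variance model, a replicate block and each array left out. For genes that are not members, the rule named up to 3 called genes with the largest change per list. The text also names the other called genes of each list, and Nus1 and Osbpl9, which were chosen after their values were seen. Members and lists were chosen with earlier results of these data known. Promoter letters are those of RefSeq on GRCm38.p6.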

Additional observations from a re-analysis of the deposited data

How the results depend on the processing

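The number of sterol genes called higher was 10 with centring on ribosomal protein genes and 9 to 17 over the fits that left out 1 array, against 16. The number called lower was 1 with no filter, with ribosomal centring and without the variance trend, and 1 to 2 with 1 array left out, against 2. The number of synthesis enzymes called higher was 7 with either centring and 7 to 12 with 1 array left out, against 11. The median difference of the 29 genes ranged from 0.40 to 0.66 with 1 array left out. Over all genes, 3820 to 4636 were called with 1 array left out, and 9724 of 27022 probe sets were called singly. Centring on the median of tested genes gave 2318 genes higher and 2800 lower, against 2959 and 2156, and 11 and 2 of the sterol genes. Uncalled genes changed sign as follows. With median centring Fdft1 was at -0.015, Srebf2 at -0.044 and Scap at -0.016. Averaging the probe sets of a gene put Msmo1 at -0.34, Srebf2 at -0.083 and Scap at -0.17. For Msmo1 and Scap the average includes a probe set below the filter on dim genes, at mean signals of 17.1 and 35.1. Array weights put Srebf2 at -0.045. With 1 array left out, Msmo1 ranged from -0.047 to 0.43 and Srebf2 from -0.025 to 0.14. The called gene Sc5d was at -0.042 when its probe sets were averaged. Of 579 values of single genes under an alternative, 509 kept both direction and side of the threshold, 54 lost a call, 6 gained one and 10 changed sign. Ch25h was not tested with the 60th percentile filter. With the mouse number as a replicate block, 5092 genes, 14 sterol genes higher, 2 lower and 9 synthesis enzymes were called. Same-numbered mice correlated at 0.07, 0.11 and 0.04 in their deviations, each higher than with any other number, but the labels give no pairing. The causes of these changes were not tested, and 3 mice per group limit the smaller differences.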
